A study of Mus musculus with 46 samples.

Results

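Telomere maintenance genes were described at the chromatin level in mouse fibroblasts that were reprogrammed to pluripotency or transdifferentiated towards blood. The set held 9 genes, Terf1, Terf2, Tinf2, Acd, Pot1a, Tert, Dkc1, Rif1 and Rtel1, of 22238 protein-coding genes of the mm9 annotation. The genes were taken by name for their known role, and a peak was assigned to a gene when it overlapped the stretch from 1 kb before its start to 1 kb past its end. The level of a gene was the sum of the scores of its peaks, where a score is the normalized tag count of the peak, in tags per 10 M tags of the library. Whole peaks were counted, also where they ran past the flanks. The number of kb covered by those peaks is given with the sum, since every library had its own peaks and a longer peak collects more tags.

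Telomeres are the repeated ends of chromosomes, which are bound by the shelterin complex and lengthened by telomerase. Terf1 and Terf2 hold shelterin on the double-stranded repeats, Tinf2 joins them to Acd and Pot1a, and Pot1a binds the single-stranded overhang. Tert is the catalytic subunit of telomerase and Dkc1 stabilises its RNA, while Rif1 and the helicase Rtel1 act in replication timing and in unwinding telomeric loops. Telomerase is active in pluripotent cells and Terf1 is abundant in them. H3.3 is the histone H3 variant that is deposited outside DNA replication, H3K4me3 marks promoters and H3K36me3 marks the bodies of transcribed genes.

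The data were ChIP-Seq peak lists of 30 libraries, 16 of H3.3 and 7 each of H3K4me3 and H3K36me3, while the other 16 of the 46 samples were inputs. All reprogramming libraries but ESD3 came from mouse embryonic fibroblasts (MEFs) that were taken from mid-gestation embryos with an IRES-EGFP reporter behind Oct4. These were day 0 (D0) before induction, day 3 (D3) after retroviral Sox2, Klf4, Oct4 and c-Myc from pMXs vectors, cells sorted by Thy-1 on days 6 and 9 and by SSEA-1 on days 12 and 16, and fully reprogrammed cells (iPSCs), all without feeder cells. The successful fractions were D6T-, D9T-, D12S+ and D16S+, and the unsuccessful ones D6T+, D9T+, D12S- and D16S-. ESD3 was an established mouse embryonic stem cell line, grown on gelatin-coated plates. The medium of each library was not given. In the transdifferentiation route, MEF and D4 were days 0 and 4 of induction with Scl, Lmo2, Runx1 and Bmi1 (SLBR), with OP9 stroma as support, and cKit+ and cKit- were the sorted fractions of the fully transdifferentiated cells. H3K4me3 and H3K36me3 were profiled in D0, D3, D6T-, D9T-, D12S+, D16S+ and iPSCs. Each group was a single library, so no test between groups was possible. Fewer cells of a type and less signal per cell cannot be told apart in such bulk libraries.

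The libraries held 13.2 M to 91.8 M tags and differed widely in the share of tags inside peaks, which ran from 1.65% in cKit+ to 37.2% in D4 for H3.3, from 3.71% in D16S+ to 34.8% in D6T- for H3K4me3 and from 1.07% in D12S+ to 42.4% in D9T- for H3K36me3. Each comparison is therefore given on the deposited scale and also after division by the median ratio of the libraries over genes with a peak in both, called the scaled ratio below. A gene was called higher or lower at 2-fold or more, after any sum under the median peak score of its library had been raised to that score. A peak of H3.3 lay at 7 of 7 fibroblast marker genes in D0, at 1 of 7 in iPSCs, at 0 of 7 in D16S+ and in ESD3, and the pluripotency markers had a peak at 5 of 8 genes in D0 (summed H3.3 score 123), at 7 of 8 in iPSCs (6866) and at 8 of 8 in ESD3 (1463). Of 7 hematopoietic markers, 4 had a peak in cKit+ (summed score 132), 4 in cKit- (204) and also 4 in D0 (1147), and Kit itself had none in cKit+ or cKit-. Fibroblast markers had a peak at 3 of 7 genes in cKit+ and 4 of 7 in cKit-.

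Terf1 (ENSMUSG00000025925.7), whose product binds the double-stranded telomeric repeat, lies on chr1:15795739-15833551 on the plus strand of mm9 and is 37.8 kb long. Its summed H3.3 score was 23.7 at D0, 43.5 at D3, 234 at D6T-, 148 at D9T-, 115 at D12S+, 134 at D16S+ and 182 in iPSCs. All 5 libraries from D6T- onwards on the successful route were above both early libraries. The unsuccessful fractions had 47.2 at D6T+, 58.6 at D9T+, 191 at D12S- and 40.7 at D16S-, and ESD3 had 45.0. D12S- was thus the only unsuccessful fraction that reached the values of the successful ones. The peaks covered 1.76 kb in D0, 16.5 kb in D6T- and 14.0 kb in iPSCs. The score per covered kb was 13.5 in D0, 14.2 in D6T- and 13.0 in iPSCs, and 18.5 and 18.3 in D12S+ and D16S+, so it differed far less than the covered length did. Among all genes ranked by H3.3 score per kb of gene and flanks, Terf1 went from above 51.3% of genes in D0 to above 85.8% in iPSCs, with its highest place in D16S+, at 94.3%. Genes without a peak counted as lower. A peak was called at 61.9% of genes in D0, 61.2% in iPSCs and 43.4% in D16S+, so a place in D16S+ is not like one in D0.

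Part of this signal lay inside Terf1, between 4 and 10 kb past its start, limits that were chosen after the peaks were seen. The stretch is intronic apart from 1 exon. D0 and D3 each had a single H3.3 peak there, at different places. It scored 8.90 at D0, from 4.03 to 4.65 kb, and 7.35 at D3, from 9.14 to 9.79 kb. The same stretch held 49.9 over 3.66 kb in D6T-, 54.7 at D9T-, 85.1 at D12S+, 88.3 over 4.24 kb in D16S+ and 82.1 over 5.65 kb in iPSCs. ESD3 had 25.3, D6T+ 8.38, D9T+ 18.2, D12S- 87.1 and D16S- 26.8. The stretch carried 37.5% of the H3.3 score of Terf1 at D0, 16.9% at D3, 21.3% at D6T-, 36.9% at D9T-, 74.1% at D12S+, 65.8% at D16S+ and 45.1% in iPSCs. Its share was thus higher than at D0 in the last 3 of these libraries and lower in the other 3. In iPSCs the peak ran over chr1:15799762-15805413 and in D16S+ over chr1:15801146-15805381. No H3.3 peak was called there in MEF, D4, cKit+ or cKit-. H3K4me3 peaks of 0.5 to 1.25 kb were called in the same stretch in D6T- (6.30), D12S+ (11.8), D16S+ (7.91) and iPSCs (23.2), and none in D0, D3 or D9T-.

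The 300 bases around the point of this stretch that the most libraries shared are shown because they mark the recurrent intronic H3.3 peak of Terf1. The bases in capitals, chr1:15803912-15804005, lay inside an H3.3 peak in 9 of 12 reprogramming libraries, which were all but D0, D3 and D9T+. They are given on the plus strand of mm9 and lie 8.07 to 8.37 kb past the start of the gene, in the intron between the exon that ends at 15803243 and the exon that starts at 15805967.

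Terf1 intronic H3.3 peak, chr1:15803808-15804107: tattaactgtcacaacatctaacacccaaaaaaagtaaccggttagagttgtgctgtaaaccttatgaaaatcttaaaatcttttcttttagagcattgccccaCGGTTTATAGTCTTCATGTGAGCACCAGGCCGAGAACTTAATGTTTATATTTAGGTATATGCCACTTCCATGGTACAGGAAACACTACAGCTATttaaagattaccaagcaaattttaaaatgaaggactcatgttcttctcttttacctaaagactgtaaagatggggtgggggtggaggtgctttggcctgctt

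The stretch held 3 CpG and 38% GC. None of 6 motifs searched on both strands was in it, which were the GC box GGGCGG, the E-box CACGTG, the cyclic AMP response element TGACGTCA, the octamer ATTTGCAT, the CCAAT box and the telomere repeat unit TTAGGG. Of the 300-base centres of all 81525 iPSCs H3.3 peaks, 8.30% held the GC box, 4.09% the E-box, 0.633% the response element, 2.10% the octamer, 33.3% the CCAAT box and 11.4% the telomere repeat unit, and the median number of CpG was 4.

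**Figure D1:**
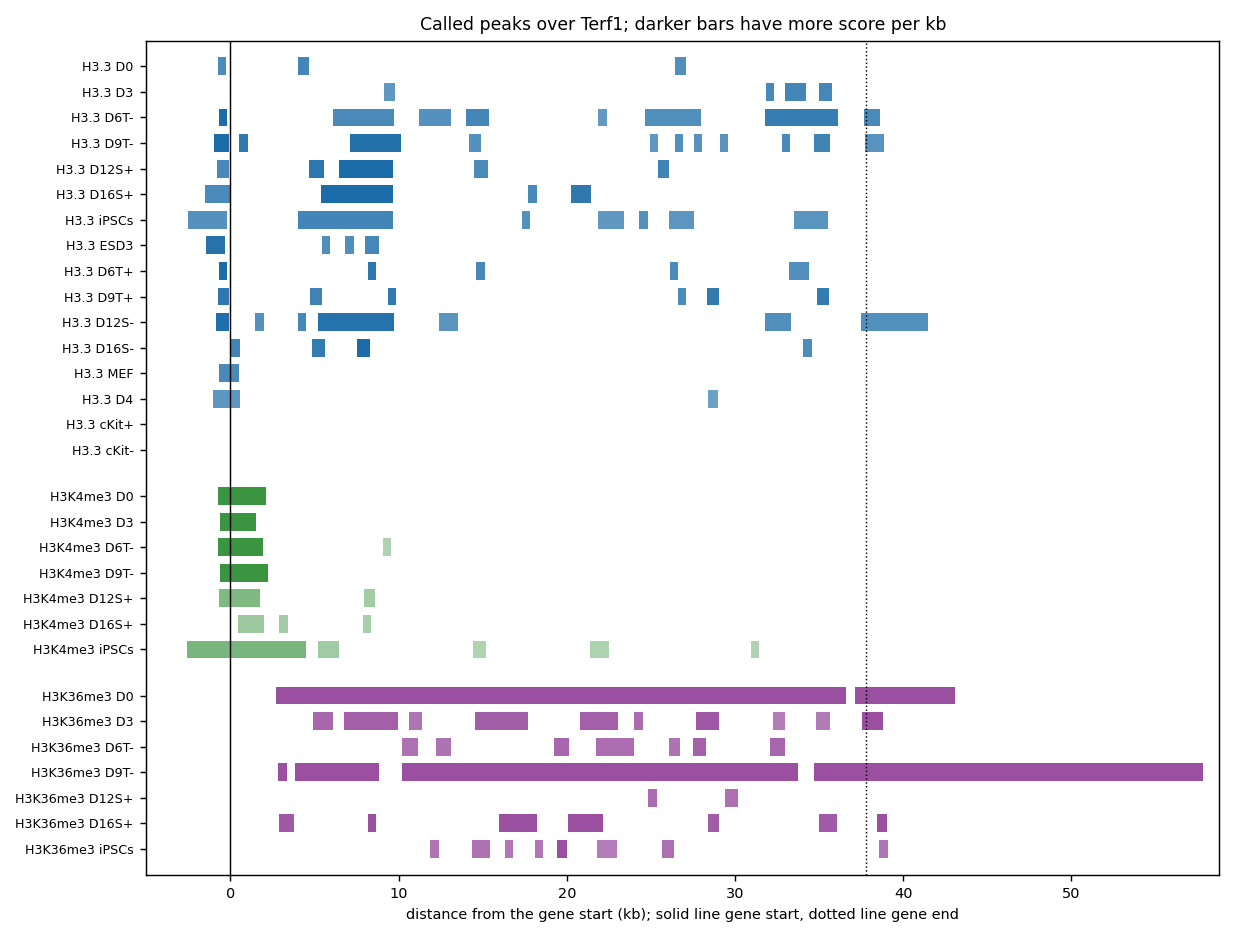
Peaks of the 3 marks over Terf1 by library, drawn as bars along the distance from the gene start in kb, with darker bars for more score per kb. H3.3 peaks between 4 and 10 kb were 3.06 to 5.65 kb long at their widest from D6T- to iPSCs on the successful route and 0.625 kb in D0.

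Upstream of Terf1, within 3 kb of the start, the H3.3 peak scored 6.68 at D0 and 29.0 over 2.35 kb in iPSCs, and it was the only Terf1 peak in MEF (15.6). D3 and D16S- had none there. The bases shared by the most reprogramming libraries lay here too, between -0.708 and -0.344 kb from the start, in 10 of 12 libraries.

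The other shelterin genes had other courses. Terf2 (chr8:109593300-109620447, minus strand), the second repeat-binding protein, had a summed H3.3 score of 132 at D0, 82.7 at D3, 180 at D6T-, 48.1 at D9T-, 31.0 at D12S+, 34.4 at D16S+ and 158 in iPSCs. It was high in D0 and in iPSCs and low between D9T- and D16S+. The unsuccessful fractions had 94.0 at D6T+, 55.2 at D9T+, 127 at D12S- and 32.9 at D16S-, and ESD3 had 74.8. Terf2 was the only one of the 9 genes with an H3.3 peak in all 16 libraries, a state shared by 14.4% of protein-coding genes.

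Tinf2 (chr14:56295455-56300654, minus strand), the bridge of shelterin, had an H3.3 score of 64.5 at D0, 49.0 at D3, 120 at D6T-, 35.6 at D9T-, 38.4 at D12S+, 16.8 at D16S+ and 56.5 in iPSCs. D6T- was highest and D16S+ lowest on this route, and the unsuccessful fractions stayed between 45.4 and 66.3, with ESD3 at 15.5. Tinf2 overlaps Gmpr2 by 2133 bp, and 78.7% of its H3.3 score lay in peaks that also reached Gmpr2. Acd (chr8:108222058-108224995, minus strand), which recruits telomerase and holds Pot1a, had 27.1 at D0, 33.5 at D3, 54.3 at D6T-, 36.6 at D9T-, 11.1 at D12S+, 15.5 at D16S+ and 42.2 in iPSCs. D6T- was again highest and D12S+ lowest, the unsuccessful fractions lay between 13.3 and 34.6, and ESD3 had 9.48. Of the score of Acd, 95.1% lay in peaks that reached Rltpr or Pard6a, which lie within 1 kb of this short gene. For both genes the share of the neighbour cannot be told apart from that of the gene itself.

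The Tinf2 promoter is shown because it is one of the promoters at which H3.3 itself was found. The 250 bases before the RefSeq start (GRCm38.p6 table, matched once and exactly to mm9) are given in the direction of transcription, with the cyclic AMP response element TGACGTCA in capitals.

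Tinf2 promoter, chr14:56300655-56300904, minus strand: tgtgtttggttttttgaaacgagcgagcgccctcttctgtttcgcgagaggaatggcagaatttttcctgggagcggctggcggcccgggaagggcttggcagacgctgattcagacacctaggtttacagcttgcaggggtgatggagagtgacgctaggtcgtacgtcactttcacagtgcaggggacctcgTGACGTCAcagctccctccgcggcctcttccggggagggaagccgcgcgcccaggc

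An H3.3 peak overlapped these bases in 7 of 16 libraries (D0, D3, D6T-, D16S+, iPSCs, D16S- and D4) and an H3K4me3 peak in 7 of 7. The stretch holds 20 CpG, where the median of 32851 promoters of this length was 6, and 1.55% of them held the element on either strand.

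Pot1a (chr6:25693737-25759246, minus strand), the single-strand binding protein, is the longest of the genes at 65.5 kb and had among the lowest H3.3 scores. It had 7.60 at D0, 34.4 at D6T-, 27.2 at D9T-, 6.66 at D12S+ and 6.67 at D16S+, and no peak in D3 or iPSCs. D6T- and D9T- were thus above all others on this route. The unsuccessful fractions had no peak in D6T+ and D9T+, 19.9 at D12S- and 9.02 at D16S-, and ESD3 had 6.71. A peak of 0.5 kb, as at Pot1a in D0, D12S+, D16S+ and ESD3, is the shortest length in these sums.

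Tert (chr13:73764449-73786489, plus strand), the catalytic subunit of telomerase, carried little H3.3 during reprogramming. Its score was 7.05 at D0, 5.73 at D6T-, 6.02 at D9T- and 21.5 over 1.86 kb in iPSCs, and no peak was called in D3, D12S+ or D16S+. The iPSCs library was the highest of the reprogramming libraries, and D12S- came next with 17.6. ESD3 had 6.71 and D16S- 7.81, while D6T+ and D9T+ had no peak. The largest value lay outside reprogramming, at 81.6 over 7.09 kb in D4, where a peak of 5.37 kb upstream of the start scored 63.3. Much of this ran past the flanks. Counting only the part within the gene and its 1 kb flanks, D4 had 25.1 over 2.30 kb and iPSCs 21.5. A missing peak means that the tags did not pass the limits of the peak search, not that H3.3 was absent.

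The Tert promoter is shown because the H3K4me3 of this gene lay over it in every library. Its RefSeq start is 90 bp upstream of the annotated start, and 2 GC boxes, read on the other strand as CCGCCC, are in capitals.

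Tert promoter, chr13:73764109-73764358, plus strand: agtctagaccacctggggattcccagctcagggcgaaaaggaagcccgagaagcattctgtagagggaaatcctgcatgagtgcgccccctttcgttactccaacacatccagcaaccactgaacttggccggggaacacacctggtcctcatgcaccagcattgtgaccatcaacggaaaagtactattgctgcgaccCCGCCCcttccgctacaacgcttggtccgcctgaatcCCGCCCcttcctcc

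An H3K4me3 peak overlapped it in 7 of 7 libraries, and an H3.3 peak in 1 of 16, D12S-. It holds 12 CpG, and 32.7% of promoters held a GC box. The H3K4me3 score at Tert was 101 at D0, 109 at D6T-, 24.0 at D16S+ and 50.3 in iPSCs.

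Dkc1 (chrX:72341193-72355116, plus strand), the pseudouridine synthase dyskerin, had an H3.3 score of 13.4 at D0, 17.8 at D3, 167 at D6T-, 76.6 at D9T-, 30.0 at D12S+, 37.6 at D16S+ and 12.8 in iPSCs. D6T- was highest by far, and iPSCs lay near the value of D0. The unsuccessful fractions had 19.6 at D6T+, 45.6 at D9T+, 111 at D12S- and 15.4 at D16S-, and no peak was called in ESD3. The signal lay at the end of the gene. A single peak of 10.8 kb over chrX:72349451-72360272 scored 152 at D6T-, and the stretch from 8 to 20 kb past the start held 66.7 at D9T- and 94.8 at D12S- but 5.47 in iPSCs. These limits were chosen after the peaks were seen, and Mpp1 overlaps the end of Dkc1 by 45 bp, so that 65.0% of the H3.3 score of Dkc1 lay in peaks that also reached Mpp1.

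Rif1 (chr2:51928357-51977903, plus strand), a telomere-associated factor of replication timing, had the largest ratio of iPSCs to D0 in the set. Its H3.3 score was 7.98 at D0, 12.2 at D3, 44.5 at D6T-, 59.7 at D9T-, 16.9 at D12S+, 85.9 at D16S+ and 309 in iPSCs. The iPSCs library was the highest, ESD3 had 67.6 and the unsuccessful fractions had 21.9 at D6T+, 27.8 at D9T+, 78.0 at D12S- and 39.8 at D16S-. Rif1 was 3.60-fold higher in iPSCs than in D16S+, where the median gene was 2.65-fold higher, and the scaled ratio was 1.36. The covered length was 0.626 kb in D0 and 25.7 kb in iPSCs, where 16 peaks were called against 1 to 6 in the other reprogramming libraries. Inside the gene, 15 of them held a score of 265 over 22.1 kb. Upstream of the start a single peak rose from 7.98 at D0 to 41.2 at D9T-, 45.9 at D16S+ and 43.7 over 3.62 kb in iPSCs, but it was 10.0 at D12S+, so this stretch was near its iPSCs value in D9T- and D16S+ while the body was not.

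**Figure D2:**
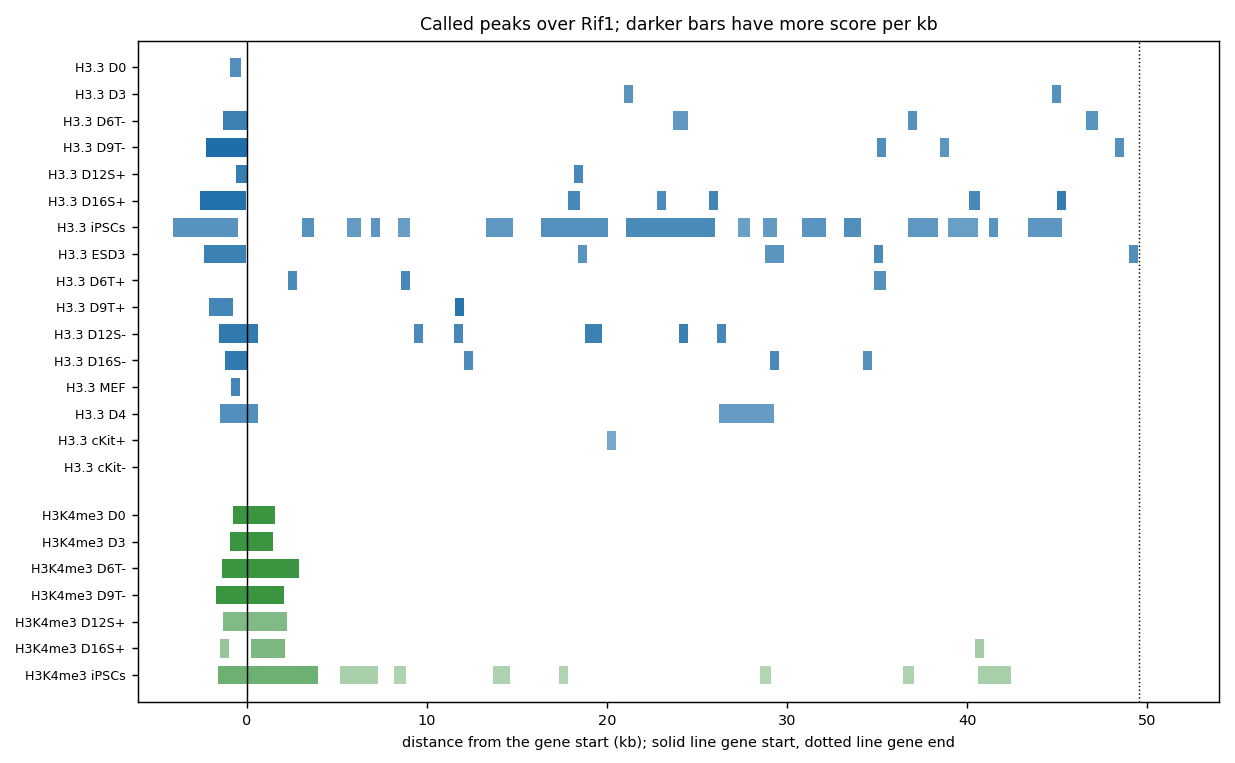
Peaks of H3.3 and H3K4me3 over Rif1 by library, drawn as bars along the distance from the gene start in kb, with darker bars for more score per kb. H3.3 peaks filled 22.1 kb of the gene body in iPSCs, and at most 5 peaks were called there in any other library.

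Rtel1 (chr2:181054444-181091321, plus strand), a helicase that unwinds telomeric loops, had a different course. Its H3.3 score was 48.8 at D0, 55.7 at D3, 85.3 at D6T- and 5.56 at D9T-, it had no peak in D12S+ and D16S+, and it stood at 77.4 in iPSCs. The signal was thus present early, missing in the middle and present again at the end. The unsuccessful fractions had 25.9 at D6T+, 17.8 at D9T+ and 20.7 at D12S- and no peak in D16S-, and ESD3 had 63.9. The early and the late signal lay in different places. The stretch around the end of the gene, from 34 to 41 kb past the start (limits chosen after the peaks were seen), held 29.8 at D0, 47.8 at D3 and 69.3 at D6T-, but 16.6 in iPSCs and 9.71 in ESD3.

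The Rtel1 promoter is shown because an H3.3 peak overlapped the bases printed below in iPSCs and in no other library. Near the gene start the signal was not limited to iPSCs. H3.3 peaks reaching within 500 bp of the annotated start were called in iPSCs (36.8), ESD3 (17.3 over 1.34 kb) and D4 (8.55). The RefSeq start of Rtel1 is 15 bp upstream of the annotated start, and the GC box, read on the other strand, is in capitals.

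Rtel1 promoter, chr2:181054179-181054428, plus strand: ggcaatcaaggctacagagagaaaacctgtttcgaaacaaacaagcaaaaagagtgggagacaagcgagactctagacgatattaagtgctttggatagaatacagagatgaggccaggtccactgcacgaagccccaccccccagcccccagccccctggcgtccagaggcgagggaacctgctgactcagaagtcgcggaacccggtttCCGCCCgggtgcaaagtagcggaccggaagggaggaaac

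It holds 13 CpG, and an H3K4me3 peak overlapped it in 7 of 7 libraries. Of the 9 genes, 7 had an entry in the RefSeq promoter table, and Terf1 and Rif1 had none.

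**Figure D3:**
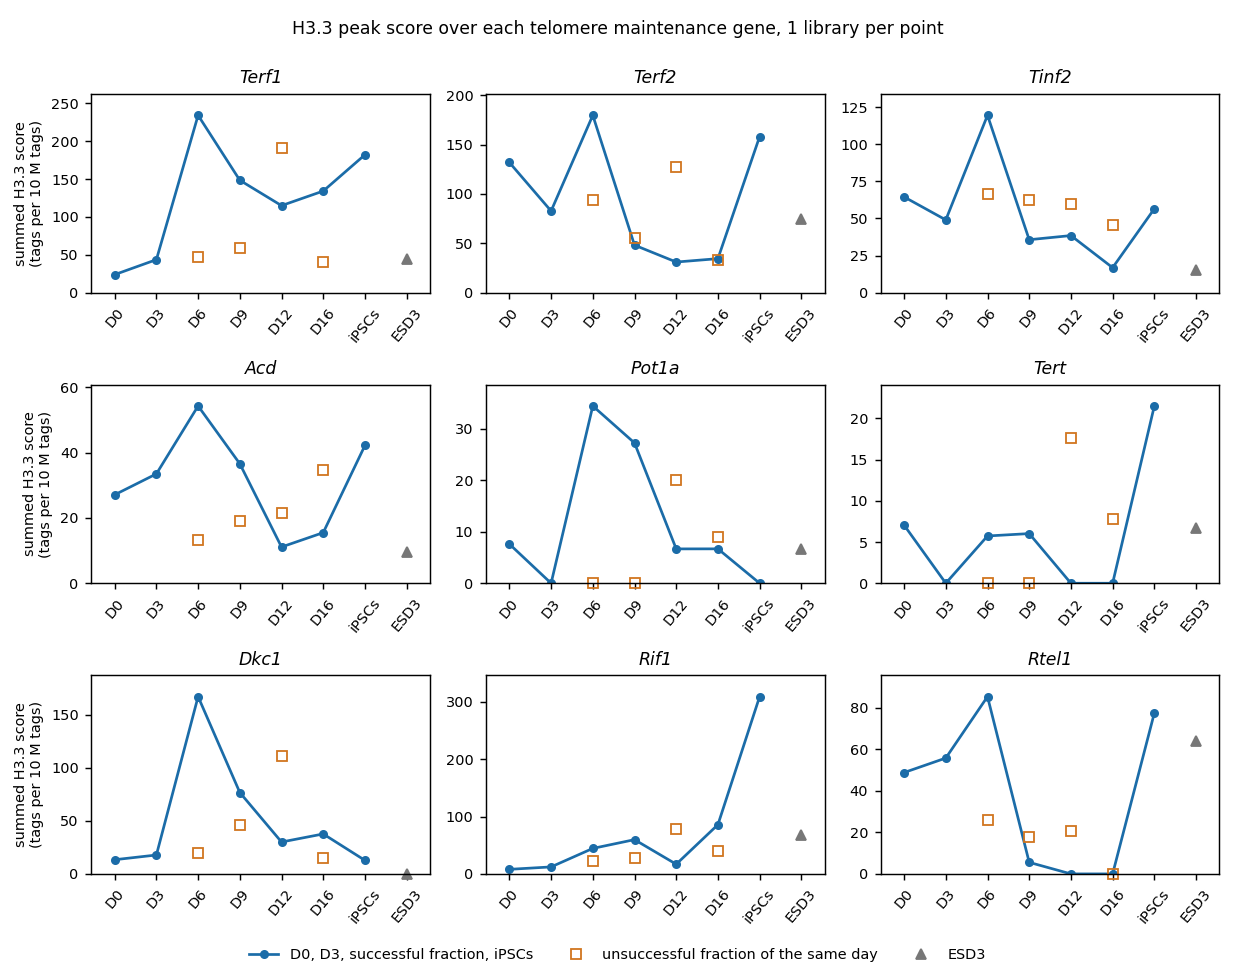
Summed H3.3 score (tags per 10 M tags) of each of the 9 genes in each of the 12 reprogramming libraries, 1 point per library, with the stage on the x axis. Circles are D0, D3, the successful fractions and iPSCs, squares the unsuccessful fractions and triangles ESD3. Terf1 lay at 115 or more from D6T- to iPSCs and at 43.5 or less before, and Rif1 was highest in iPSCs, at 309.

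The comparison of iPSCs with D0 asks how H3.3 at these genes differed between the start and the end of reprogramming. Terf1 was 7.67-fold higher in iPSCs (95% exact binomial interval 5.93 to 10.1, for counting error only) and Rif1 38.7-fold higher (24.9 to 60.7). The Rif1 ratio rested on 1 peak of 7.98 in D0, below the median peak score of that library (10.8). With that sum raised as for the calls, the log2 ratio of Rif1 was 4.84. Terf1 and Rif1 were the 2 of 9 genes called higher, where 16.6% of 15728 tested genes were, and 0 of 9 were called lower, where 34.6% were. Pot1a had a score of 7.60 in D0 and no peak in iPSCs, which was not called. Of the other 6 genes, 5 lay within 2-fold, with Rtel1 at 1.59, Acd at 1.56, Terf2 at 1.20, Dkc1 at 0.955 and Tinf2 at 0.876. Tert had a ratio of 3.05 and was not called because its D0 score was below the median peak score of that library. Over all genes the median ratio of iPSCs to D0 was 0.692, or a log2 shift of -0.53. After this shift was taken out, 5 of 9 genes were called higher (Terf1, Acd, Tert, Rif1 and Rtel1; all genes 24.9%) and 0 lower (24.6%). The scaled ratio was 11.1 for Terf1 and 56.0 for Rif1. The median log2 ratio, with low sums raised as for the calls, was 0.64 over the 9 genes and -0.33 over all tested genes.

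In D3, 0 of 9 genes were called higher than in D0 on the deposited scale (all genes 4.2%), and after scaling Terf1 (2.78) and Dkc1 (2.02) were called, against 11.1%. D6T- was the first library of the successful route with calls on the deposited scale. The ratio to D0 was 12.5 for Dkc1 (8.90 to 18.1), 9.86 for Terf1 (7.63 to 13.0), 5.57 for Rif1, 4.52 for Pot1a and 2.00 for Acd, so that 5 of 9 genes were called higher against 23.2% of all genes tested. After scaling, 4 of 9 were called, all but Acd of these, against 17.7%. In D6T+, the unsuccessful cells of the same day, 1 of 9 genes was called higher than D0 (Rif1, 2.74-fold; all genes 2.66%) and 1 lower (Acd; 34.6%). After scaling, 3 of 9 were called higher in D6T+, Rif1 (4.44), Terf1 (3.22) and Dkc1 (2.37), against 8.55%, and 0 lower. All of these comparisons share the D0 library.

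The sorted fractions ask whether the genes differed between cells on the way to pluripotency and cells that failed to get there on the same day. On day 6, the 6 genes Terf1, Acd, Pot1a, Dkc1, Rif1 and Rtel1 were called higher in D6T- than in D6T+, where 42.2% of all genes were. Terf1 was 4.96-fold higher (4.04 to 6.20) and Dkc1 8.52-fold higher. The median gene was 1.87-fold higher in D6T-, and after scaling 3 genes were called, Terf1 (2.65), Acd (2.18) and Dkc1 (4.55), against 16.6%. On day 9, Terf1 (2.53-fold), Rif1 (2.15-fold) and Pot1a (27.2 against no peak) were called higher in D9T-, where 18.3% of all genes were. After scaling, 2 genes were called higher on day 9 (Terf1, 2.05, and Pot1a; all genes 11.6%) and 2 lower (Tinf2 and Rtel1; 10.1%).

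On day 12 the direction turned on the deposited scale. None of the 9 genes was called higher in D12S+ (all genes 0.722%) and 5 were called lower, Terf2, Pot1a, Dkc1, Rif1 and Rtel1, where 69.5% of all genes were. D12S- had 22.0% of its tags in peaks and D12S+ 6.93%, and the median ratio of the libraries was 0.300. After scaling, Terf1 (2.01) and Tinf2 (2.14) were called higher in D12S+ against 11.6%, and no gene of the set was called lower. On day 16, Terf1 was 3.29-fold higher in D16S+ than in D16S- (2.57 to 4.29), Dkc1 2.45-fold and Rif1 2.16-fold, 3 of 8 genes tested against 3.44% of all genes. Tinf2 and Acd were called lower on that day, where 55.2% of all genes were. After scaling, Terf1 (8.94), Dkc1 (6.64), Rif1 (5.86) and Terf2 (2.84) were called higher, against 16.6%.

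Over the 4 days, Terf1 and Rif1 were called higher in the successful fraction on 3 days, a state that 0.578% of 15910 tested genes, or 92 genes, reached. After scaling, Terf1 was called on 4 of 4 days, which held for 0.189% of tested genes, or 30 genes, while Rif1 was called on 1 day. Of 36 pairs of a gene and a day, 12 were called higher in the successful fraction (all genes 14.3%) and 7 in the unsuccessful one (29.9%). The pluripotency markers had a higher summed H3.3 score in the successful fraction on all 4 days. This included day 12, when 0 of 9 genes were called higher in that fraction on the deposited scale. Their summed H3.3 score was 56.0 at D6T- and 37.3 at D6T+, 200 at D9T- and 0 at D9T+, 2358 at D12S+ and 481 at D12S-, and 3450 at D16S+ and 409 at D16S-, and the part of cell composition in the differences was not tested. On different days, 5 of 9 genes (Acd, Pot1a, Dkc1, Rif1 and Rtel1) were called in opposite directions, against 36.5% of all genes.

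**Figure D4:**
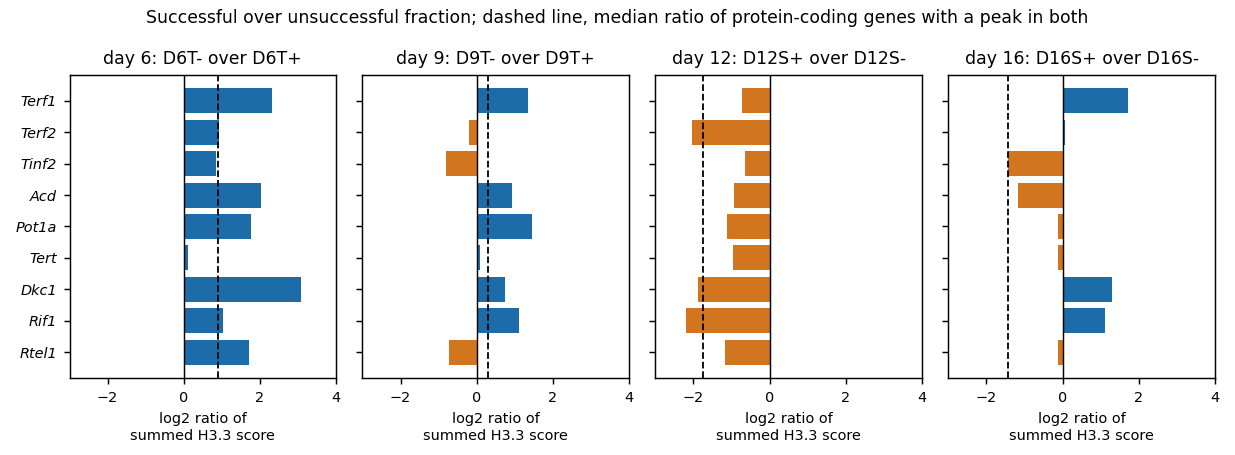
Ratio of the summed H3.3 score in the successful to that in the unsuccessful fraction of the same day for each gene, as log2 with low sums raised as for the calls, with days 6, 9, 12 and 16 side by side. The dashed line is the median of all genes with a peak in both. The bar of Terf1 lay above 0 on days 6, 9 and 16 and below it on day 12, when the median was -1.74.

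The embryonic stem cell line did not match the iPSCs in level. Terf1 was 4.05-fold higher in iPSCs than in ESD3, Rif1 4.57-fold, Acd 4.45-fold, Tinf2 3.65-fold, Tert 3.20-fold and Terf2 2.11-fold, 6 of 9 genes where 42.7% of all genes were called higher. The median gene was 1.91-fold higher in iPSCs, and after scaling Terf1 (2.12), Acd (2.33) and Rif1 (2.40) were called, against 16% of all genes.

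D0 and MEF were both fibroblasts before induction, from the different routes, and give the nearest thing to a repeat in these data. They were not alike in preparation. The paper describes sorting of the transdifferentiation fibroblasts to remove cells with hematopoietic surface markers, and does not state this for the reprogramming fibroblasts. D0 had 19.1% of its tags in peaks and MEF 7.64%. Terf1 was 1.52-fold and Rif1 1.11-fold higher in D0. On the scaled ratio Terf1 was 1.71-fold and Rif1 2.34-fold higher in MEF, and neither was called. Terf2 (4.28-fold) and Rtel1 (2.42-fold) were called higher in D0, where 57.4% of all genes were, and the median gene was 2.61-fold higher. After scaling, 0 of 9 genes were called higher (18.3%) and Acd was called lower (14.2%). The 7.67-fold difference of Terf1 between iPSCs and D0 was larger than its difference between these fibroblast libraries. For Rif1, with 38.7-fold between iPSCs and D0, the fibroblast libraries give no such gauge. Its score in each was 1 peak, 7.98 in D0 and 7.17 in MEF, below the median peak scores of 10.8 and 8.03.

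In transdifferentiation the scores of the set differed along with those of the whole library. From MEF to D4, all genes of the set but Terf1 were called higher, 8 of 9, where 87.5% of all genes were, and Terf1 went from 15.6 to 24.7, or 1.58-fold. The median gene rose 6.10-fold, and after scaling 0 of 9 were called higher (17.9%) while Terf1 (0.259) and Tinf2 (0.479) were called lower (11.8%). Among the values in D4 were 229 for Terf2, 121 for Rtel1, 114 for Tinf2 and 101 for Acd. All 9 genes were called lower in cKit+ than in D4 (all genes 91.1%) and also in cKit- (89.7%). After scaling, Pot1a was called higher in cKit+ (all genes 11%) and Terf2 lower (20.6%), and in cKit- Pot1a was called higher (11.5%) and 0 of 9 lower (23.4%). Only 4 genes in cKit+ and 3 in cKit- had a peak, with no score above 8.82, and Terf1, Tert, Dkc1 and Rtel1 had none in either.

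The marks differed in where they lay. Scores were pooled here over all libraries of a mark, 16 of H3.3 with transdifferentiation included and 7 each of the others. Peaks reaching within 500 bp of the gene start held 94.7% of the H3K4me3 score of the 9 genes, 31.4% of their H3.3 score and 0% of their H3K36me3 score. For H3.3 the share was 79.0% at Acd, 64.4% at Tinf2, 61.8% at Tert, 35.1% at Rif1, 29.9% at Pot1a, 27.5% at Terf2, 14.5% at Terf1, 11.6% at Rtel1 and 1.57% at Dkc1. The Tert share rested mostly on D4, whose peak at the start scored 63.3, against 17.6 in D12S- and 14.2 in iPSCs. The genes with most of their H3.3 at the start thus included both short ones, Acd and Tinf2, while at Dkc1 nearly all of it lay elsewhere. H3.3 peaks were called at 5 of 9 genes in all 12 reprogramming libraries (Terf1, Terf2, Tinf2, Acd and Rif1; all genes 28%), H3K4me3 peaks at 9 of 9 genes in all 7 libraries (49.3%) and H3K36me3 peaks at 4 of 9 in all 7 (Terf1, Terf2, Rif1 and Rtel1; 14.6%).

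H3K4me3 at Terf1 scored 186 over 2.87 kb in D0, 158 at D3, 258 at D6T-, 184 at D9T-, 90.4 at D12S+, 47.8 at D16S+ and 298 over 10.8 kb in iPSCs. Rif1 had 179 over 2.33 kb in D0, 159 at D3, 297 at D6T-, 229 at D9T-, 112 at D12S+, 81.9 at D16S+ and 320 over 12.9 kb in iPSCs. Both genes were thus highest in iPSCs, where their H3K4me3 also reached far past the start, and lowest in D16S+, the H3K4me3 library with the fewest tags in peaks. They were the only genes of the set with 10 kb or more of H3K4me3 peaks in iPSCs, a width chosen after the peaks were seen, against 1.72% of all genes. Dkc1 went from 119 over 3.09 kb in D0 to 156 over 7.98 kb in iPSCs, with 273 at D6T-.

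Against D0, 0 of 9 genes were called higher in H3K4me3 in iPSCs (all genes 1.5%) and 4 were called lower, Tinf2, Acd, Pot1a and Tert (66.8%). The median ratio of all genes was 0.384, and after scaling 3 of 9 were called higher, Rif1 (4.66), Terf1 (4.17) and Dkc1 (3.42), against 9.3%, and Pot1a (0.479) was called lower, against 8.42%. The H3K4me3 score of Pot1a was 110 at D0 and 20.1 in iPSCs. The other 5 genes had scaled ratios between 1.10 and 1.41. At Acd, 100% of the H3K4me3 score lay in peaks that reached Rltpr or Pard6a.

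**Figure D5:**
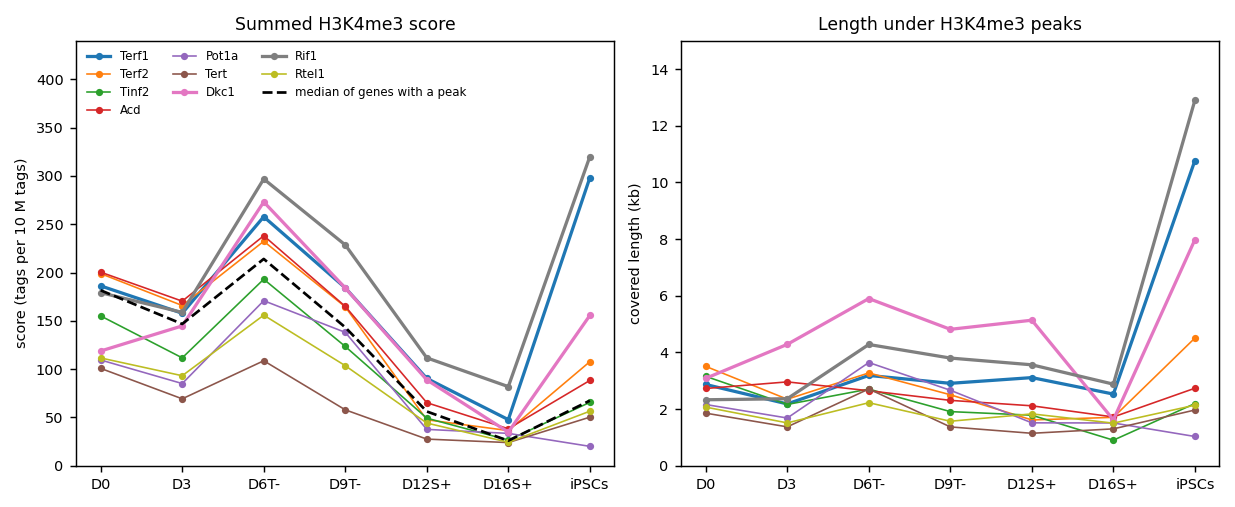
Summed H3K4me3 score (tags per 10 M tags, left) and length under H3K4me3 peaks (kb, right) of the 9 genes in the 7 libraries, 1 point per library. The dashed line is the median score of genes with a peak. Terf1 and Rif1 were highest in iPSCs (298 and 320), and the other 7 genes were highest in D6T-.

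H3K36me3 at Terf1 scored 825 over 39.8 kb in D0, 246 at D3, 108 at D6T-, 1387 over 52.1 kb in D9T-, 17.8 at D12S+, 149 at D16S+ and 78.9 in iPSCs. Rif1 had 503 at D0, 253 at D3, 108 at D6T-, 1814 at D9T-, 58.3 at D12S+, 158 at D16S+ and 137 in iPSCs. D9T- was highest for all genes but Dkc1, which was highest in D0 (485 against 280) when whole peaks were counted. Its D0 value was 1 peak of 28.5 kb, longer than the gene. Counting only the part within the gene and its 1 kb flanks, Dkc1 had 202 in D0 and 258 in D9T-. Of the H3K36me3 score, 83.2% at Dkc1 lay in peaks that also reached Mpp1, and 98.2% at Tinf2 in peaks that also reached Gmpr2. D9T- was also the H3K36me3 library with the most tags in peaks. Against D0, 7 of 8 genes tested were called lower in iPSCs, where 81.9% of all genes were, and 0 higher (1.13%). The median ratio was 0.110, and after scaling Rif1 (2.49) and Tert (5.70) were called higher, against 17.9%, and Terf2, Pot1a and Dkc1 lower, against 25.4%. The Tert value rested on scores of 23.4 at D0 and 14.6 in iPSCs. Acd had H3K36me3 peaks in D9T- and D16S+ only.

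Within the 9 genes and their flanks, H3.3 peaks covered 24.2 kb in D0, 18.6 kb in D3, 56.5 kb in D6T-, 28.6 kb in D9T-, 16.3 kb in D12S+, 18.2 kb in D16S+ and 62.6 kb in iPSCs. Between 15.5% (D16S+) and 30.3% (D0) of these bases also lay in an H3K4me3 peak, and between 1.82% (D12S+) and 60.8% (D9T-) in an H3K36me3 peak. At Terf1 in iPSCs, 8.56 of 12.5 kb of H3.3 lay in neither mark, and at Rif1 12.4 of 22.7 kb.

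The genes whose H3.3 scores followed that of Terf1 most closely over the 12 reprogramming libraries were Rit2 (Pearson r of log2(score + 1) 0.961), Cort (0.953), Cdan1 (0.947), Ttbk2 (0.943) and 1110002N22Rik (0.927), of 13229 genes compared, whose median was 0.0982. Cdan1 and Ttbk2 had the same score in D0, 24.5, and are neighbours on chromosome 2. Within the set, Rif1 (0.660) and Dkc1 (0.612) were most like Terf1, followed by Pot1a (0.386), Acd (0.287), Tert (0.262), Terf2 (0.158), Tinf2 (0.123) and Rtel1 (-0.06). These values describe 12 libraries that differed in depth and in the share of tags in peaks, which all genes share.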

How the data were processed

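ChIP-Seq peak lists of 30 libraries were used, and the 16 inputs entered only through the fold over input of each peak. Reads were mapped to mm9 with STAR and peaks were called with HOMER, per the labels and file headers (versions not given in the sources used here), in histone style and for each library separately. The peak score in the deposited lists is a signal, the tag count that the authors normalized to 10 M tags. The fold over input is a ratio computed by the authors, of at least 2 for H3.3 and 4 for the other marks. The p-value of each peak is from the authors' Poisson model against input, with a limit of 0.0001, and is no test between groups.

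Scores of peaks overlapping a gene with 1 kb flanks were summed in Python 3.11.15 (pandas 2.3.3, numpy 2.4.6, scipy 1.17.1) with the gene annotation GENCODE vM1. A call meant sums at least 2-fold apart after sums under the median peak score of a library were set to it. Each group was 1 library, so no test was run. Intervals are exact (Clopper-Pearson) and cover counting error only. The 9 genes, the marker genes and the further telomere genes were chosen with earlier results of these data known, and all 9 were described. Further telomere genes called in H3.3 between iPSCs and D0 were named, and values were given for the 6 with the largest folds among those with a ratio. Alternatives were equal numbers of peaks, no flanks, midpoint assignment, prorated scores, another floor, scaling, score per covered kb and a fold over input of 4.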

Additional observations from a re-analysis of the deposited data

Results flagged for a closer look

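In 5 genes the H3.3 score differed in opposite directions between the sorted fractions on different days. Each fraction was 1 library, and the difference between days was not tested. Of all genes, 36.5% had such calls.

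Acd, the shelterin subunit that holds Pot1a, scored 54.3 in D6T- against 13.3 in D6T+ on day 6, but 15.5 in D16S+ against 34.6 in D16S- on day 16. Pot1a had 34.4 against no peak on day 6 and 27.2 against no peak on day 9, both higher in the successful fraction, and 6.66 against 19.9 on day 12. Dkc1, the dyskerin gene, had 167 against 19.6 on day 6, 30.0 against 111 on day 12 and 37.6 against 15.4 on day 16.

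Rif1 had 44.5 against 21.9 on day 6, 59.7 against 27.8 on day 9, 16.9 against 78.0 on day 12 and 85.9 against 39.8 on day 16, so that day 12 alone went the other way. Rtel1 had 85.3 against 25.9 on day 6 and no peak (a score of 0) in D12S+ against 20.7 in D12S- on day 12. Day 12 was the reverse direction in 4 of these 5 genes, and on that day the median of all genes was 0.300 in D12S+ relative to D12S-. After scaling by that median, none of the 9 genes was called lower in D12S+.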

How the results depend on the processing

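No paired analysis was run. Each group was 1 library, so no replicate could be left out. The 4 same-day pairs of fractions are different stages, sorted by Thy-1 or by SSEA-1, and are given day by day. The number of genes with an H3.3 peak in all 12 reprogramming libraries, 5, was 0 with equal numbers of top-scoring peaks, 3 without flanks and 1 at a fold over input of at least 4. The 2 genes called higher in H3.3 in iPSCs than in D0 were 4 with equal numbers of peaks, 5 after scaling, 0 per covered kb and 0 at a fold over input of at least 4, where 1 gene was called lower in place of 0. The 12 gene and day pairs higher in the successful fraction were 0 per covered kb and 7 at a fold over input of at least 4, and the 7 higher in the unsuccessful fraction were 2 after scaling and 0 per covered kb. In H3K4me3, scaling changed the genes called higher in iPSCs from 0 to 3 and those called lower from 4 to 1, and per covered kb 7 were lower. In H3K36me3, scaling gave 2 higher in place of 0 and 3 lower in place of 7, and per covered kb 0 were lower. The 8 genes higher in D4 than in MEF were 5 with equal numbers of peaks, 0 after scaling and 0 per covered kb. The Terf1 ratio of iPSCs to D0, 7.67, was 11.1 after scaling and 0.961, reversed, per covered kb. It had no value with equal numbers of peaks, since no Terf1 peak of D0 was kept. At a fold over input of at least 4 it also had no value. The highest fold of any Terf1 H3.3 peak was 3.81 in D0 and 3.91 in iPSCs, so none was kept in either library. Scores per covered kb leave out the covered length by construction. The cause of the other changes was not tested. The other 53 values from alternatives were within their limits of the reported ones. Depth limits the smallest sums, since a score of 1 stands for 1.32 to 9.18 tags, depending on the library.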

Other observations

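Among 27 further genes of telomere biology, 26 were found in the annotation (Ctc1 and Ten1 under older names), and 3 of them, Zscan4c, Zscan4d and Zscan4f, had no H3.3 peak in D0 or iPSCs. The authors had filtered out reads that mapped to several loci, and its bearing on these genes was not tested. The counts of 26 below include genes without a peak in either library, 3 for H3.3 and H3K4me3 and 4 for H3K36me3. The percentages of all genes leave such genes out. In H3.3, 7 of 26 were called higher in iPSCs than in D0 (Pot1b, Ten1, Wrap53, Tep1, Wrn, Atrx and Daxx) and 4 lower (Shq1, Pinx1, Smg6 and Tnks), where 16.6% and 34.6% of all genes were called. Ten1, a subunit of the complex that binds single-stranded telomeric DNA, went from 9.46 in D0 to 108 in iPSCs. Wrn, the Werner syndrome helicase, went from 6.86 to 69.0. Atrx and Daxx are the chaperone pair that places H3.3 at telomeres, and Pot1b is the paralog of Pot1a.

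The genes called lower included Pinx1, an inhibitor of telomerase, from 278 in D0 to 31.6 in iPSCs, Smg6 from 1015 to 156, Shq1, a chaperone of dyskerin, from 128 to 27.2, and Tnks, tankyrase, from 409 to 102. After scaling, 8 were called higher (all genes 24.9%) and 4 lower (24.6%). In H3K4me3, 0 of 26 were called higher (1.5%) and 13 lower (66.8%) in iPSCs, and after scaling 4 higher (9.3%) and 1 lower (8.42%). In H3K36me3, 0 were called higher (1.13%) and 20 lower (81.9%), and after scaling 8 higher (17.9%) and 6 lower (25.4%). Between D6T- and D6T+, 13 of 26 were called higher in H3.3 in D6T- (42.2%) and 0 lower (3.81%), and after scaling 7 higher (16.6%) and 3 lower (12.6%).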
